A study of Mus musculus with 11 samples.

Results

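The Wnt-responsive and stem cell genes of the crypt were examined in the rectal mucosa of mice with an inducible deletion of Itga6 in the intestinal epithelium. The set was named as 10 genes (Lgr5, Smoc2, Ascl2, Lrig1, Axin2, Rnf43, Notum, Ephb2, Ephb3 and Sox9). A gene was taken where the platform annotation gave exactly its symbol to a transcript cluster, which held for 9 of the 10, with 1 cluster each, among 19944 genes tested. Ephb2 had no cluster by that rule and was not analysed here. All 11 mice were 10 weeks old, and whole rectal mucosa from each mouse gave RNA for its own Affymetrix Mouse Gene 1.0 ST array. The first group was α6ΔIEC-TAM mutants given tamoxifen (n = 4, 1 of them male), the agent that is meant to induce the deletion. The second was α6ΔIEC-TAM mutants given NaCl in its place (n = 4, 1 male), which carry the same inducible allele without induction. The third was controls labelled wild type and given tamoxifen (n = 3, 2 male). Mice were gavaged on alternate days during 5 days, starting at 8 weeks of age, with 10 mg per day of tamoxifen where it was given, and the mucosa was collected 15 days after gavage began. The sources used here do not give the promoter that drives the recombinase, or say whether controls carry any part of the inducible system.

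At the base of the intestinal crypt, Wnt ligands bind Frizzled receptors and LRP co-receptors, β-catenin escapes destruction and joins TCF factors in the nucleus, and a set of target genes is transcribed. R-spondins strengthen the signal by engaging LGR receptors and removing RNF43 and ZNRF3, the ubiquitin ligases that clear Frizzled from the cell surface. Among the targets, Lgr5, Ascl2 and Smoc2 mark the cycling stem cells, Axin2, Rnf43 and Notum feed back on the pathway, Ephb2 and Ephb3 position cells along the crypt axis, and Sox9 and Lrig1 mark stem and progenitor cells.

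Upstream sequence was taken for the genes that were lower in the mutant tamoxifen arrays and had a window in the RefSeq table of build GRCm38.p6 (Ascl2 and Rnf43), and for Ephb3, whose window held a motif searched for. Windows were present for 6 of the 10 genes, 7 windows in all, and those of Lgr5, Smoc2, Sox9 and Notum were not in the table. Rnf43 had a further window, at chr11:87699647-87699896, which was searched and is not shown. Each run below is the 250 bases before the start site, 5′ to 3′ on the strand of the gene. Capitals mark CAGCTG, the only E-box form searched, which bHLH factors such as ASCL2 bind.
Ascl2, chr7:142969265-142969514, minus strand: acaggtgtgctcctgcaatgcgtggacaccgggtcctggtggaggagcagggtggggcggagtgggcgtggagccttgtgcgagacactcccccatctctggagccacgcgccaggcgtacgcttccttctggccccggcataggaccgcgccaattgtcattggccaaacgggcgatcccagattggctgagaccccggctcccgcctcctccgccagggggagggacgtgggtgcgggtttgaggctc
Rnf43, chr11:87662837-87663086, plus strand: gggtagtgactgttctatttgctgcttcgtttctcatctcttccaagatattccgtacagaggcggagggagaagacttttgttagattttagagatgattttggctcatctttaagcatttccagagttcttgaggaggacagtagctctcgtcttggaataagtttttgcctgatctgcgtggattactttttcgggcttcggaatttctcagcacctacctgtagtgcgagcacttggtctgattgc
Ephb3, chr16:21204545-21204794, plus strand: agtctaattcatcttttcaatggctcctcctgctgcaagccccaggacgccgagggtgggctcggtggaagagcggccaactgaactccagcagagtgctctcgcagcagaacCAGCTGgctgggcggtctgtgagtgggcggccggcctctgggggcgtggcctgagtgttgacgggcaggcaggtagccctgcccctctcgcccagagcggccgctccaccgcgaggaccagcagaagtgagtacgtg
The TCF core was searched on both strands as CTTTG followed by 2 bases that are each A or T, and it was found in none of the 7 windows. Of 32851 windows of this length 14.8% held it, and 7 windows are too few to show a difference from that share. The E-box form CAGCTG stood once, 137 bases before the Ephb3 start, and 13.0% of all windows held it. Other E-box forms were not searched. A match is a description of the sequence, not a binding site, and TCF-bound elements outside these windows were not searched.

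Epithelial markers were at a mean log2 level of 12.65 to 12.73 in mutant tamoxifen, 12.57 to 12.61 in mutant NaCl and 12.54 to 12.61 in control tamoxifen arrays. Of 8 such markers, 2 rose and 0 fell against control tamoxifen, beside 12.9% of all genes called higher. Against mutant NaCl 3 rose and 0 fell, beside 12.5%. The Krt19 calls among these were lost with any 1 of 8 arrays left out in the first comparison and any 1 of 9 in the second. Itga6 itself was higher in the arrays labelled mutant tamoxifen (mean 11.82) than in mutant NaCl (11.41, adjusted p = 0.0053) and control tamoxifen (11.39, adjusted p = 0.00949), which goes against the label. The position of its probes relative to the deletion is unknown, so this gene cannot check the labels, and every direction below follows the groups as labelled. Other markers differed within and between groups. The mean of 12 squamous markers ran from 8.35 to 10.34 in mutant tamoxifen, from 8.93 to 10.18 in mutant NaCl and from 6.60 to 10.43 in control tamoxifen, and 0 of them passed the threshold in any comparison of all 11 arrays. Control replicate 2 held the 10.43, the other controls lay at 6.60 and 7.85, and without it 5 of the 12 rose against control tamoxifen. The 15 measured markers of dividing cells lay at 10.05 to 10.12, 9.44 to 9.65 and 8.92 to 9.51 in the same order of groups, and 10 smooth muscle markers at 11.53 to 11.67, 11.91 to 12.19 and 12.05 to 12.20. Control tamoxifen replicate 1 had the lowest squamous and dividing-cell means of all arrays. It also had the highest level of its group for all 9 genes of the set, where 38.9% of all genes were highest in it, and calls of genes named below that were lost without it are said to be so. Differences below are log2 differences from a limma fit of all genes with a term for sex, and a gene passed when p adjusted over all genes was under 0.05. The spread behind each p-value is that between mice, and the small number of arrays sets the precision.

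The first comparison, of mutant with control mice, sets the genotypes side by side when both had the drug. The set split: Smoc2 was 1.44-fold higher, Ascl2 was 1.51-fold lower and Rnf43 was 1.33-fold lower in mutant tamoxifen, and the other 6 measured genes did not pass. The 3 of 9 genes called stand beside 24.6% of all genes called in the same fit (12.9% higher and 11.8% lower), a background close to the share in the set. Against mutant NaCl, the comparison of induced with uninduced mutants, the same 3 genes were called in the same directions, beside 23.2% of all genes (12.5% higher and 10.7% lower). At an unadjusted p under 0.05 there were 5 of 9 in each comparison, beside 37.3% of all genes against control tamoxifen and 34.7% against mutant NaCl. These comparisons share the mutant tamoxifen arrays, so the second is no separate replication of the first. The median log2 difference of the 9 genes was -0.05 against control tamoxifen and -0.08 against mutant NaCl, and over all genes it was -0.02 and -0.01.

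**Figure D1:**
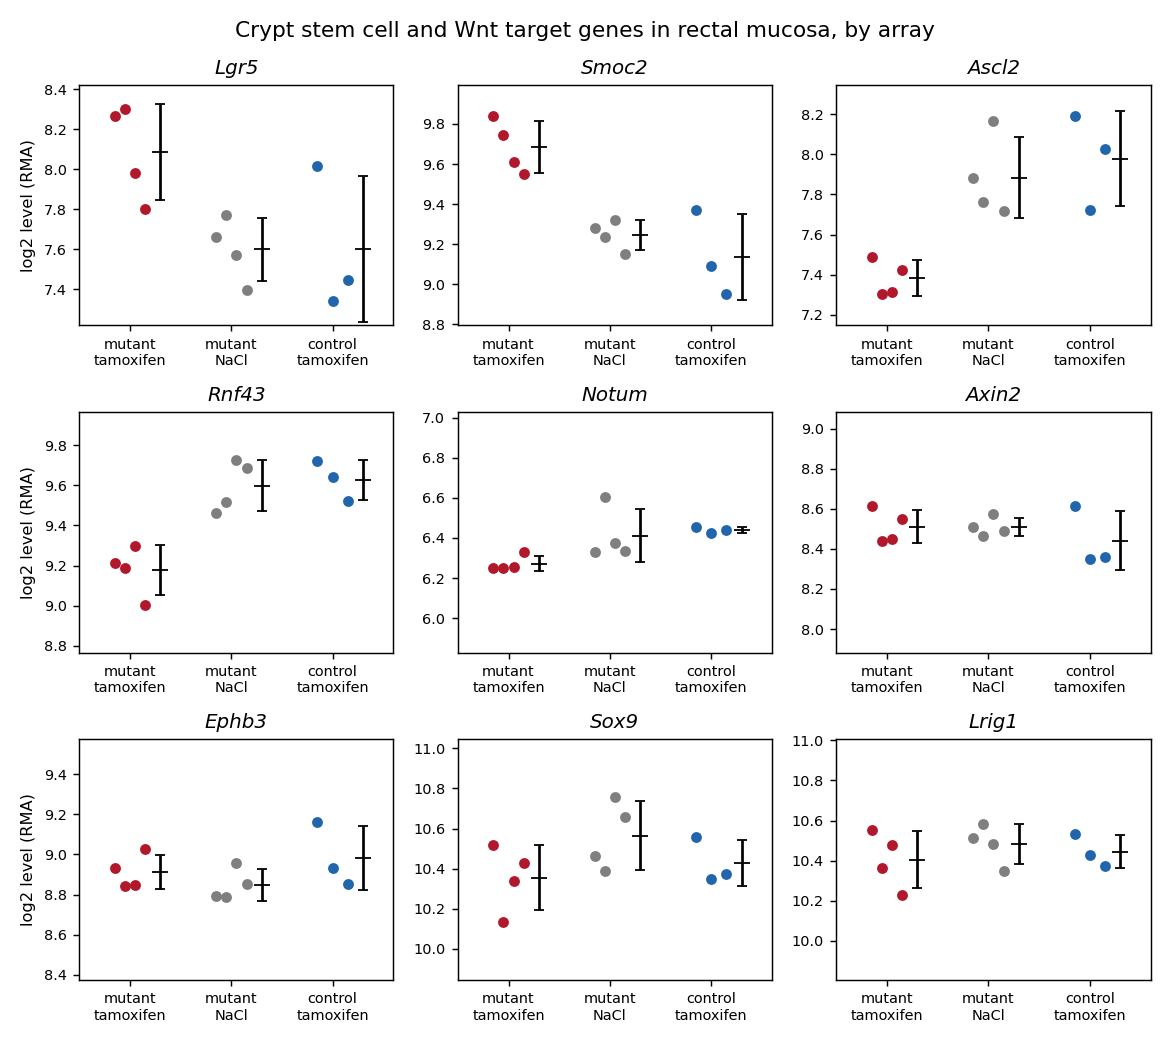
Log2 level (RMA) of each measured gene in every array (points, 1 per mouse), in mutant tamoxifen (n = 4), mutant NaCl (n = 4) and control tamoxifen (n = 3), with the mean and SD beside the points. Every panel spans the same log2 range. All 4 mutant tamoxifen points lie above the other groups for Smoc2 and below them for Ascl2 and Rnf43.

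Lgr5 encodes the R-spondin receptor that marks the cycling stem cells of the crypt base. Its log2 levels were 8.27, 8.30, 7.98 and 7.80 in mutant tamoxifen arrays, 7.66, 7.77, 7.57 and 7.40 in mutant NaCl arrays, and 8.02, 7.34 and 7.44 in control tamoxifen arrays. All mutant tamoxifen arrays lay above all mutant NaCl arrays, and they overlapped with the controls through control replicate 1 alone. The group means were 8.09 ± 0.238 in mutant tamoxifen, 7.60 ± 0.158 in mutant NaCl and 7.60 ± 0.364 in control tamoxifen (SD). The difference from control tamoxifen was 0.47 (95% interval 0.07 to 0.88) and did not pass (limma, adjusted p = 0.0861), and the difference from mutant NaCl was 0.49 (interval 0.13 to 0.84), just outside the threshold (adjusted p = 0.0507). Without control replicate 1 both passed, at 0.66 (adjusted p = 0.0121) against control tamoxifen and 0.49 (adjusted p = 0.0126) against mutant NaCl. Without mutant tamoxifen replicate 4 they also passed (0.56, adjusted p = 0.0485, and 0.59, adjusted p = 0.0292), whereas without control replicate 2 the first difference was 0.20 (adjusted p = 0.563) and the second passed (adjusted p = 0.0335).

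Smoc2 encodes a secreted calcium-binding matrix protein found in the expression signature of Lgr5-positive stem cells, and fibroblasts also make it. It read 9.84, 9.74, 9.61 and 9.55 in mutant tamoxifen arrays, 9.28, 9.24, 9.32 and 9.15 in mutant NaCl arrays, and 9.37, 9.09 and 8.95 in control tamoxifen arrays. Every mutant tamoxifen array was above every array of the other groups. Smoc2 rose by a log2 difference of 0.53 (SE 0.11) against control tamoxifen (adjusted p = 0.00585) and by 0.44 (SE 0.093) against mutant NaCl (adjusted p = 0.00684). Without control replicate 2, the only female control, the first difference was 0.44 and no longer passed (adjusted p = 0.0612). Of 10 fibroblast markers, 1 rose and 0 fell against control tamoxifen, and 4 rose and 3 fell against mutant NaCl. The mean log2 level of those markers was 10.81 to 10.91 in mutant tamoxifen, 10.58 to 10.92 in mutant NaCl and 10.72 to 10.89 in control tamoxifen, and their part in the Smoc2 result was not tested. In bulk mucosa, more cells of a type and more RNA per cell cannot be told apart, for this gene and for all others here.

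Among all other genes tested, the one whose centred levels lay closest to those of Lgr5 over the 11 arrays was Smoc2. The root mean square difference was 0.136, next to a spread of 0.317 for Lgr5 itself. The next were Slc12a8, which belongs to a family of cation-chloride cotransporters, at 0.146 and Aven, an apoptosis regulator, at 0.159. The 11 arrays share their groups and their normalisation, so this closeness is a description.

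Ascl2 encodes the bHLH transcription factor that acts with Wnt signalling to keep the stem cell state, and its levels were lower in mutant tamoxifen. Ascl2 read 7.49, 7.30, 7.31 and 7.42 in mutant tamoxifen arrays, 7.88, 7.76, 8.17 and 7.72 in mutant NaCl arrays, and 8.19, 7.72 and 8.03 in control tamoxifen arrays. All mutant tamoxifen arrays were below all others, with no overlap. Ascl2 fell by a log2 difference of 0.59 (SE 0.14) against control tamoxifen (adjusted p = 0.0103) and by 0.50 (SE 0.12) against mutant NaCl (adjusted p = 0.0116). The first call was lost without mutant tamoxifen replicate 3, the male of the group (-0.53, adjusted p = 0.0708), and in female arrays alone, where 1 control remained (-0.32, adjusted p = 0.256). The second held in every setting tried (adjusted p 0.00434 to 0.0475), of which there were 20 for this gene. The nearest patterns to Ascl2 were those of Tcea3, a transcription elongation factor gene, at a root mean square difference of 0.0963, S100pbp at 0.0983 and Fgfr2, a receptor of fibroblast growth factors, at 0.100. Rnf43 came at rank 487 (0.179), and Lgr5 at rank 18925 (0.537), beside a spread of Ascl2 itself of 0.305. Ranks run over the 19944 genes tested, less Ascl2 itself.

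Lrig1, a transmembrane inhibitor of ERBB receptors that marks stem and progenitor cells, did not pass in either comparison. Its levels were 10.55, 10.36, 10.48 and 10.23 in mutant tamoxifen, 10.51, 10.58, 10.48 and 10.35 in mutant NaCl, and 10.54, 10.43 and 10.37 in control tamoxifen. The groups overlapped throughout. The difference was -0.05 (interval -0.25 to 0.15, adjusted p = 0.728) against control tamoxifen and -0.08 (interval -0.25 to 0.10, adjusted p = 0.543) against mutant NaCl.

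**Figure D2:**
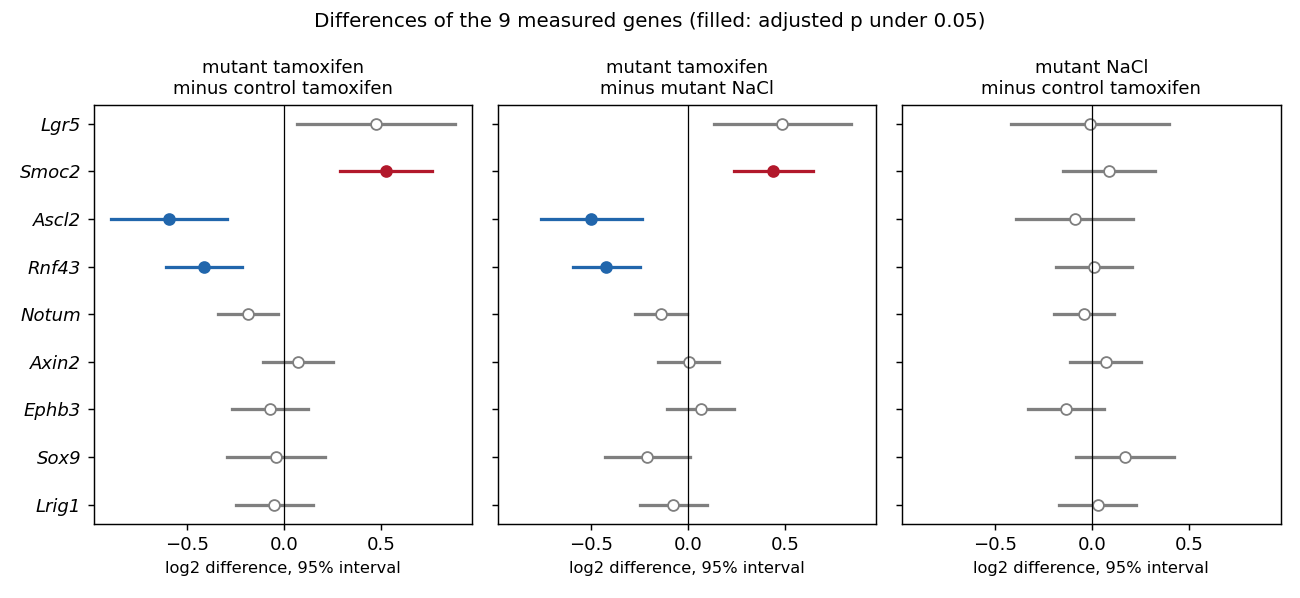
Log2 differences with 95% intervals from the limma fit for the 9 measured genes in the 3 comparisons. Filled points passed at adjusted p under 0.05, and red is higher and blue lower in the group named first. Smoc2, Ascl2 and Rnf43 are filled in both comparisons of mutant tamoxifen, and no gene is filled in mutant NaCl minus control tamoxifen.

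Of the feedback genes in the set, Rnf43 fell and Axin2 and Notum did not pass. Rnf43, the ubiquitin ligase that removes Frizzled receptors, read 9.21, 9.19, 9.30 and 9.01 in mutant tamoxifen, 9.46, 9.52, 9.73 and 9.69 in mutant NaCl, and 9.72, 9.64 and 9.52 in control tamoxifen. Its mutant tamoxifen levels were all below the others. Rnf43 fell by a log2 difference of 0.41 (SE 0.09) against control tamoxifen (adjusted p = 0.0079) and by 0.42 (SE 0.078) against mutant NaCl (adjusted p = 0.00347). The first call was lost without control replicate 2 (-0.34, adjusted p = 0.0807) and in female arrays alone (-0.50, adjusted p = 0.056). Znrf3, its paralogue and partner in Frizzled clearance, named here after its values were seen, passed as lower too, by a difference of -0.29 (adjusted p = 0.0461) and -0.38 (adjusted p = 0.00789). Its first call was lost in 11 of 21 alternatives, among them those without control replicate 1 (-0.24, adjusted p = 0.123) and without mutant tamoxifen replicate 3 (-0.15, adjusted p = 0.301).

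Axin2, the scaffold of the β-catenin destruction complex and a widely used Wnt reporter gene, passed in no comparison. It read 8.61, 8.44, 8.45 and 8.55 in mutant tamoxifen, 8.51, 8.47, 8.57 and 8.49 in mutant NaCl, and 8.61, 8.35 and 8.36 in control tamoxifen, with all groups overlapping. The difference was 0.07 (interval -0.11 to 0.25, adjusted p = 0.565) against control tamoxifen and 0.00 (interval -0.15 to 0.16, adjusted p = 0.983) against mutant NaCl. These intervals exclude a decrease or increase as large as the fitted differences of Ascl2, Smoc2 and Rnf43, although Axin2 and those genes were not tested against each other. The nearest patterns to Axin2 were Olfr292 (root mean square difference 0.0442), an olfactory receptor gene, Abhd4 (0.0496) and Rasip1 (0.0505), all beside a spread of Axin2 of 0.0866.

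Notum encodes a secreted enzyme that inactivates Wnt ligands by removing their lipid. It read 6.25, 6.25, 6.25 and 6.33 in mutant tamoxifen, 6.33, 6.61, 6.38 and 6.33 in mutant NaCl, and 6.46, 6.42 and 6.44 in control tamoxifen. Mutant tamoxifen lay below both groups with no overlap, by under 0.01 against mutant NaCl. The differences of -0.18 (interval -0.34 to -0.03, adjusted p = 0.0786) and -0.14 (interval -0.27 to -0.01, adjusted p = 0.122) did not pass. Its mean level exceeded that of 26.8% of all genes, and the table gives no detection calls.

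Ephb3, a receptor tyrosine kinase that sorts cells along the crypt, read 8.93, 8.84, 8.85 and 9.03 in mutant tamoxifen, 8.79, 8.79, 8.96 and 8.85 in mutant NaCl, and 9.16, 8.93 and 8.85 in control tamoxifen. The groups overlapped, and the differences were -0.07 (interval -0.27 to 0.13, adjusted p = 0.603) and 0.06 (interval -0.11 to 0.23, adjusted p = 0.618). None of its 3 ligand genes, Efnb1, Efnb2 and Efnb3, passed against mutant NaCl. Efnb3 fell against control tamoxifen (-0.23, adjusted p = 0.00887), a call lost without control replicate 2 (-0.22, adjusted p = 0.0642).

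Sox9, a transcription factor of stem and progenitor cells, read 10.52, 10.13, 10.34 and 10.43 in mutant tamoxifen, 10.46, 10.39, 10.76 and 10.66 in mutant NaCl, and 10.56, 10.35 and 10.38 in control tamoxifen. The groups overlapped. The difference from control tamoxifen was -0.04 (interval -0.30 to 0.21, adjusted p = 0.82) and that from mutant NaCl -0.21 (interval -0.43 to 0.01, adjusted p = 0.162). The nearest patterns were Emcn, an endothelial sialomucin gene (root mean square difference 0.0535), Extl3, a glycosyltransferase gene of heparan sulphate synthesis (0.0621), and Numbl, a Notch inhibitor gene (0.0677). The spread of Sox9 itself was 0.161.

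Counted by overlap alone, 4 of the 9 genes had no overlap between mutant tamoxifen and control tamoxifen arrays (Smoc2 higher, and Ascl2, Rnf43 and Notum lower), beside 37.4% of all genes (17.3% higher and 20.1% lower). Against mutant NaCl there were 5, with Lgr5 added, beside 26.8% of all genes (14.2% higher and 12.6% lower). In each of these 5 genes the mutant NaCl and control tamoxifen arrays overlapped.

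**Figure D3:**
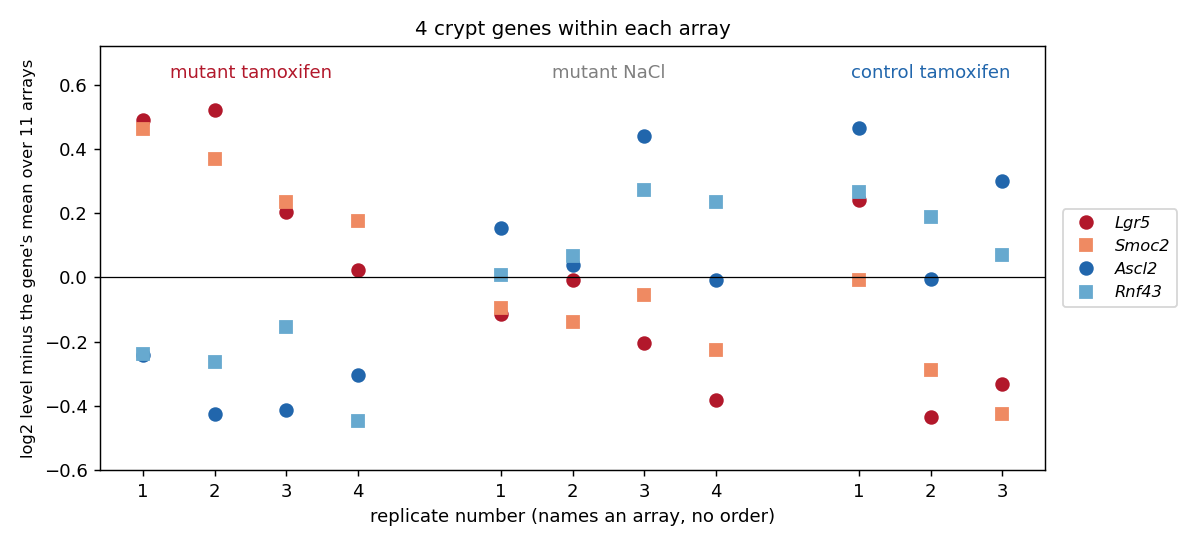
Log2 level of Lgr5, Smoc2, Ascl2 and Rnf43 in each array, after the mean of that gene over the 11 arrays was subtracted. In all 4 mutant tamoxifen arrays Lgr5 and Smoc2 stand above Ascl2 and Rnf43. In the mutant NaCl and control tamoxifen arrays both stand below both.

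Mutant NaCl against control tamoxifen compares uninduced mutants with drug-treated controls, and genotype and drug cannot be told apart in it. None of the 9 genes passed with limma (0 of 9, beside 0.0% of all genes), and 0 of 9 had an unadjusted p under 0.05, where 8.15% of all genes did. The arrays of the groups overlapped for all 9 genes, beside 8.14% of all genes without overlap (2.82% higher and 5.32% lower). Differences ran from -0.13 for Ephb3 (interval -0.33 to 0.06) to 0.17 for Sox9 (interval -0.08 to 0.42). For Smoc2, Ascl2 and Rnf43 they were 0.09, -0.09 and 0.01. For Lgr5 the difference was -0.01 with a wide interval (-0.42 to 0.40).

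The rest of the pathway was read from lists of known components, and genes on 2 lists are counted in both. Where a bracket below holds a pair of log2 differences, the first is against control tamoxifen and the second against mutant NaCl. Over all genes, 24.6% were called against control tamoxifen (12.9% higher and 11.8% lower) and 23.2% against mutant NaCl (12.5% higher and 10.7% lower). Every count of called genes in a list below, from the fit of all 11 arrays, is to be read beside these shares. The genes named by rule from these lists gave 30 calls against control tamoxifen, of which 13 held whichever array was left out, and 29 against mutant NaCl, of which 21 did. Without mutant tamoxifen replicate 3, 13 of the 30 were lost, without control replicate 2, 10, without control replicate 1, 4 (Wnt5a, Nkd2, Ctnnb1 and Btrc), and in female arrays alone, with 1 control, 22. Fzd2, Sfrp1, Bambi, Bmp2 and Grem1 were called against control tamoxifen in all 21 alternatives. Of 16 ligand and secretion genes, 1 rose and 1 fell against control tamoxifen, and 0 rose and 3 fell against mutant NaCl. Wnt2b, a ligand of the stroma, fell in both (-0.37, adjusted p = 0.00784, and -0.32, adjusted p = 0.00863). Wnt5a, which acts mostly without β-catenin, passed as higher against control tamoxifen (0.52, adjusted p = 0.0178) and not against mutant NaCl (0.26, adjusted p = 0.144). That call, the only one upward in the list, was lost without control replicate 1 (0.45, adjusted p = 0.0533) and without mutant tamoxifen replicate 3 (0.38, adjusted p = 0.13). Porcn, the enzyme that adds the lipid to Wnt proteins, fell against mutant NaCl (-0.25, adjusted p = 0.0365), a call lost with any 1 of 7 arrays left out, and Wnt3a passed in neither (-0.22 and -0.04). None of the 4 R-spondin genes passed with limma in either comparison (0 of 4, and 0 with an unadjusted p under 0.05), and their differences ran from -0.09 for Rspo2 to 0.05 for Rspo1 against control tamoxifen.

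Of 17 receptor genes, 2 rose and 4 fell against control tamoxifen, and 2 rose and 5 fell against mutant NaCl. Against mutant NaCl, those that fell numbered 2 without mutant tamoxifen replicate 3, 3 without mutant tamoxifen replicate 2 and 3 without mutant NaCl replicate 2, 3 or 4, and those that rose numbered 1 without mutant tamoxifen replicate 1, 2 or 4 or mutant NaCl replicate 1 or 3. Against control tamoxifen, 1 rose without control replicate 2, and 0 rose and 1 fell in female arrays alone. The LRP co-receptors parted. Lrp5 read 10.64, 10.64, 10.64 and 10.62 in mutant tamoxifen, 10.29, 10.20, 10.32 and 10.35 in mutant NaCl, and 10.36, 10.36 and 10.31 in control tamoxifen, and it rose (0.30, adjusted p = 0.00196, and 0.35, adjusted p = 0.000428). Lrp6 read 10.57, 10.57, 10.55 and 10.50 in mutant tamoxifen, 10.64, 10.78, 10.81 and 10.78 in mutant NaCl, and 10.99, 10.80 and 10.94 in control tamoxifen, and it fell (-0.33, adjusted p = 0.00296, and -0.20, adjusted p = 0.0167). The second call was lost without mutant tamoxifen replicate 3 (adjusted p = 0.0655) and without mutant NaCl replicate 2 (adjusted p = 0.0525). Lgr4, the R-spondin receptor that is found throughout the crypt, fell (-0.25, adjusted p = 0.00736, and -0.20, adjusted p = 0.00995), as did the Wnt receptor gene Fzd2 (-0.61, adjusted p = 0.000682, and -0.42, adjusted p = 0.00181).

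Of 18 antagonists and feedback genes, 1 rose and 5 fell against control tamoxifen, and 3 rose and 6 fell against mutant NaCl. The secreted Wnt-binding protein gene Sfrp1 rose (0.77, adjusted p = 0.00211, and 0.65, adjusted p = 0.00241). The intracellular Dishevelled inhibitors fell, Nkd1 by 0.35 (adjusted p = 0.0185) and 0.39 (adjusted p = 0.00543), and Nkd2 by 0.59 (adjusted p = 0.0283) and 0.69 (adjusted p = 0.00715). Dkk3, a secreted Dickkopf family member, fell as well (-0.50, adjusted p = 0.00442, and -0.40, adjusted p = 0.00644). The 5 that fell against control tamoxifen became 1 without mutant tamoxifen replicate 3, 2 without control replicate 1, 1 without control replicate 2 and 0 in female arrays alone.

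Inside the cell, 2 of 13 destruction and transduction genes rose and 1 fell in each comparison. Ctnnb1, which encodes β-catenin, rose slightly (0.11, adjusted p = 0.0477, and 0.12, adjusted p = 0.0246), as did Tnks2, a tankyrase that marks axin for degradation (0.22, adjusted p = 0.0311, and 0.22, adjusted p = 0.0179). Btrc, the ubiquitin ligase subunit that recognises β-catenin, fell (-0.22, adjusted p = 0.046, and -0.25, adjusted p = 0.0154), and Amer1 did not pass (-0.16 and -0.13). The Ctnnb1 call against control tamoxifen was lost in 15 of 21 alternatives, 10 of them with 1 array left out. That of Btrc was lost in 12 and that of Tnks2 in 7. Against mutant NaCl the calls were lost in 6 for Ctnnb1, 2 for Btrc and 1 for Tnks2. Against control tamoxifen, 0 genes of this list passed without mutant tamoxifen replicate 3, without control replicate 2 or in female arrays alone, and 1 rose and 0 fell without control replicate 1. Against mutant NaCl, 1 rose and 0 fell without mutant tamoxifen replicate 3. Among 11 TCF factors and nuclear partners, 0 rose in either comparison, and 3 fell against control tamoxifen and 6 against mutant NaCl. Tcf7l2, the main TCF of intestinal epithelium, read 10.67, 10.71, 10.89 and 10.64 in mutant tamoxifen, 10.95, 11.02, 11.07 and 11.19 in mutant NaCl, and 11.10, 11.04 and 11.04 in control tamoxifen. It fell (-0.27, adjusted p = 0.00589, and -0.33, adjusted p = 0.00103), as did the co-repressor genes Tle3 (-0.24, adjusted p = 0.0138, and -0.22, adjusted p = 0.0107) and Tle4 (-0.22, adjusted p = 0.0167, and -0.35, adjusted p = 0.000806). Tle1 did not pass (0.24 and 0.10). The medians of this list, -0.12 and -0.18, stand beside -0.02 and -0.01 over all genes. Without mutant tamoxifen replicate 3, 1 gene of the list fell against control tamoxifen and 3 against mutant NaCl, and without control replicate 2, 1 fell against control tamoxifen. The Tcf7l2 call against control tamoxifen was lost without control replicate 2 (-0.20, adjusted p = 0.0737). Of 10 smooth muscle markers all fell in both comparisons. Of 7 enteric glia and neuron markers, 0 rose and 4 fell against control tamoxifen, and 1 rose and 2 fell against mutant NaCl. The part of these cell types in the lower genes of these lists was not tested.

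**Figure D4:**
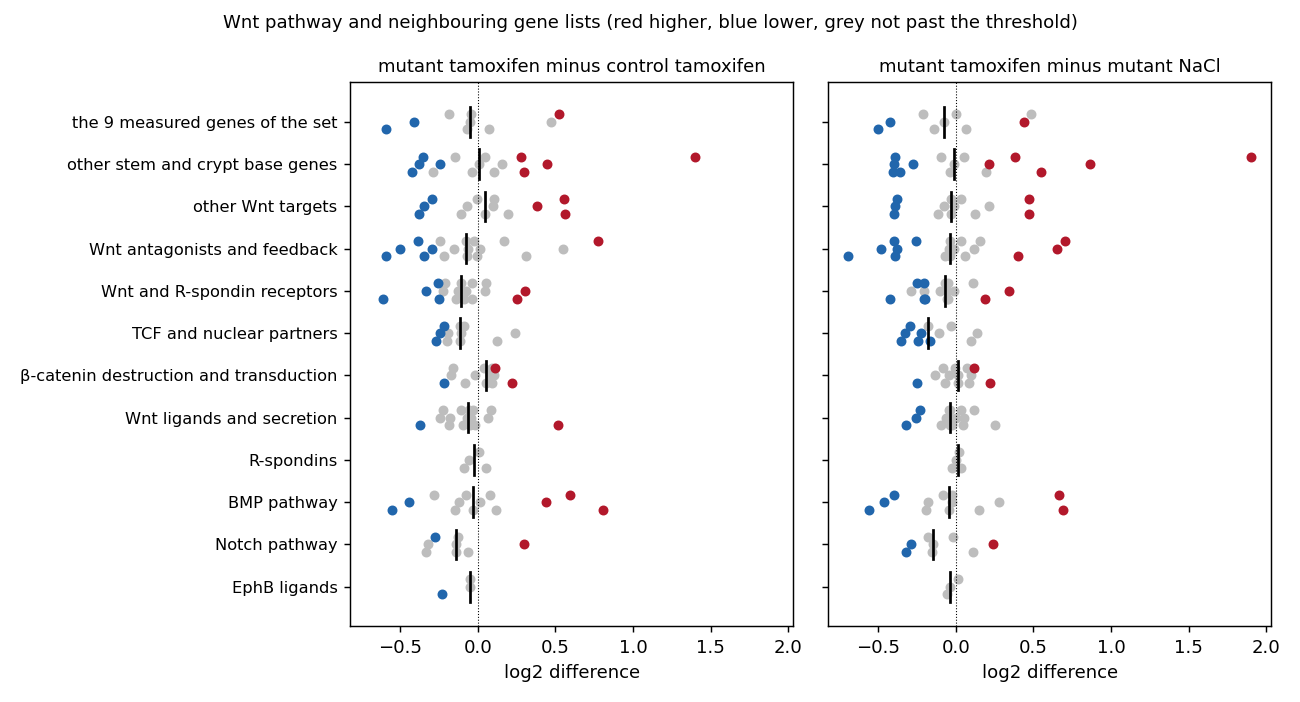
Log2 difference of each gene of the lists in mutant tamoxifen against control tamoxifen (left) and against mutant NaCl (right). Each point is 1 gene, red where it rose, blue where it fell and grey where it did not pass, and the vertical bars are list medians. Every list with called genes other than the TCF, EphB ligand and, against mutant NaCl, Wnt ligand lists has points of both colours.

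Further target and crypt base genes also went in both directions. Of 13 other Wnt targets, 3 rose and 3 fell against control tamoxifen, and 2 rose and 3 fell against mutant NaCl. Cd44, a hyaluronan receptor, rose (0.56, adjusted p = 0.00902, and 0.47, adjusted p = 0.0105), and so did Bambi, a decoy receptor of BMP and TGFβ signalling (0.56, adjusted p = 0.00137, and 0.47, adjusted p = 0.00144). Met, the receptor of hepatocyte growth factor, rose against control tamoxifen (0.38, adjusted p = 0.0107) and did not pass against mutant NaCl (0.21, adjusted p = 0.0701). Tnfrsf19, a receptor known as Troy that marks crypt base stem cells, read 7.69, 7.73, 7.45 and 7.51 in mutant tamoxifen, 7.91, 8.01, 7.99 and 8.04 in mutant NaCl, and 8.04, 7.91 and 7.94 in control tamoxifen. All its mutant tamoxifen arrays were lower, and it fell (-0.38, adjusted p = 0.00861, and -0.40, adjusted p = 0.00336). Without mutant tamoxifen replicate 3 the calls against control tamoxifen of Tnfrsf19 (-0.27, adjusted p = 0.0721) and Met (0.25, adjusted p = 0.0836) were lost.

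Of 15 other stem and crypt base genes, 4 rose and 4 fell against control tamoxifen, and 5 rose and 5 fell against mutant NaCl. Rgmb, a BMP co-receptor gene of the Lgr5 signature, read 10.27, 10.23, 10.26 and 10.26 in mutant tamoxifen, 10.52, 10.73, 10.67 and 10.66 in mutant NaCl, and 10.62, 10.59 and 10.63 in control tamoxifen. It fell with a narrow spread (-0.35, adjusted p = 0.00164, and -0.39, adjusted p = 0.000398). Aqp4, a water channel, had the largest difference in the list. It read 10.73, 10.74, 10.88 and 10.48 in mutant tamoxifen, 8.95, 9.24, 8.68 and 8.34 in mutant NaCl, and 9.13, 8.88 and 10.01 in control tamoxifen, and rose by 1.40 (adjusted p = 0.00529) and 1.90 (adjusted p = 0.00049). Without control replicate 2 the first was 0.99 and did not pass (adjusted p = 0.0649). Bmi1, a Polycomb gene linked to slow-cycling crypt cells, rose (0.28, adjusted p = 0.00822, and 0.21, adjusted p = 0.0151), and neither call held without mutant tamoxifen replicate 3 (adjusted p = 0.0534 and 0.0524). Against control tamoxifen, 1 gene of this list rose and 1 fell without mutant tamoxifen replicate 3, 3 rose and 2 fell without control replicate 1, and 1 rose and 4 fell without control replicate 2. In the list of other Wnt targets, 2 rose and 0 fell without mutant tamoxifen replicate 3, 3 rose and 2 fell without control replicate 1, and 3 rose and 1 fell without control replicate 2.

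Lists of BMP and Notch genes were read beside these. BMP ligands restrain stem cells, and stromal antagonists hold them off at the crypt base. Of 13 BMP pathway genes, 3 rose and 2 fell against control tamoxifen, and 2 rose and 3 fell against mutant NaCl. In each comparison taken alone, 8 of 13 did not pass. They were not the same 8, since Id1 was called against control tamoxifen alone and Id2 against mutant NaCl alone. Grem1, a secreted BMP antagonist, read 11.56, 11.40, 11.58 and 11.72 in mutant tamoxifen, 10.81, 10.98, 10.78 and 11.01 in mutant NaCl, and 10.78, 10.68 and 10.95 in control tamoxifen. It rose (0.81, adjusted p = 0.000264, and 0.67, adjusted p = 0.000276), whereas the antagonist gene Chrdl1 fell (-0.45, adjusted p = 0.00748, and -0.56, adjusted p = 0.00114). The ligand gene Bmp2 fell (-0.55, adjusted p = 0.00121, and -0.40, adjusted p = 0.00295), and the ligand gene Bmp7 rose (0.59, adjusted p = 0.00188, and 0.69, adjusted p = 0.000376). In the Notch list, 1 of 8 genes rose and 1 fell against control tamoxifen, beside 24.6% of all genes called, and 1 rose and 2 fell against mutant NaCl, beside 23.2%. The receptor gene Notch2 fell (-0.28, adjusted p = 0.017, and -0.29, adjusted p = 0.00687), the ligand gene Jag1 rose (0.30, adjusted p = 0.0271, and 0.24, adjusted p = 0.0388), Hes1 fell against mutant NaCl alone (-0.33, adjusted p = 0.0557, and -0.32, adjusted p = 0.0383) and Dll1 passed in neither (-0.14 and -0.18). Without control replicate 2 the calls of Jag1 were lost in both comparisons (0.26, adjusted p = 0.153, and 0.24, adjusted p = 0.0502), as was that of Hes1 (adjusted p = 0.0506). Other arrays mattered too. Left out 1 at a time, 4 arrays ended the Jag1 call against control tamoxifen and 7 ended that against mutant NaCl. The Hes1 call was lost with any 1 of 7 arrays left out (limma adjusted p up to 0.103, without mutant NaCl replicate 3). Without mutant tamoxifen replicate 3 the calls of Notch2 (-0.16, adjusted p = 0.114) and Chrdl1 (-0.32, adjusted p = 0.0631) against control tamoxifen were lost.

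Dividing cells and differentiated cells give the setting in which these levels were read. Of 15 measured markers of dividing cells, 15 rose against control tamoxifen and 13 against mutant NaCl (medians 0.85 and 0.53). Without mutant tamoxifen replicate 3 they numbered 13 and 10, and against mutant NaCl the lowest count over the 21 alternatives was 8. In mutant NaCl against control tamoxifen, 0 of the 15 passed, with a median of 0.34. There 9 of them had an unadjusted limma p under 0.05, beside 8.15% of all genes. Of 14 absorptive colonocyte markers, 4 rose and 7 fell in each comparison (medians -0.18 and -0.23). Of 7 goblet markers, 3 rose and 2 fell, and 4 rose and 2 fell. Neutrophil markers rose in 8 of 9 in both comparisons, and their mean log2 level was 7.74 to 8.20 in mutant tamoxifen, 7.07 to 7.15 in mutant NaCl and 7.02 to 7.29 in control tamoxifen. In female arrays alone 3 rose against control tamoxifen and 7 against mutant NaCl, and with the lowest 50% of genes left out 2 of the markers were tested and 1 rose. Of 8 macrophage markers, 1 rose and 2 fell against control tamoxifen and 1 rose and 0 fell against mutant NaCl, of 7 T cell markers 0 passed in either, and of 7 B and plasma cell markers 1 rose in each. The part of these cell types in the results of the set was not tested.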

How the data were processed

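The authors deposited 1 log2 value per transcript cluster and array, made with RMA in Affymetrix Expression Console, per the labels, a method of background correction, quantile normalisation and probe summary that can shrink differences between arrays. The series design text names version 1.1 of that software and Command Console version 2.0 for the images. Partek is also named in the submitters' processing notes, with no role, and no genome build is given in the sources used here. Of 35556 clusters, 21797 carried exactly 1 symbol in the platform annotation, 1613 carried several, and 12146 were not listed. Symbols were updated through a RefSeq table (GRCm38.p6), and the cluster with the highest mean was kept per gene, which gave 19944 genes. Array medians were 7.29 to 7.35.

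All 11 arrays entered 1 limma fit (version 3.58.1, R 4.3.3) by group and sex, with a variance trend. The two-sided p-values were adjusted by Benjamini-Hochberg across all genes, with a threshold of 0.05 and no filter on dim genes. The code of the fit was run on simulated data with independent noise for each gene and array, which does not test the calls made here. Genes named were every member, Itga6, at most 4 genes per list with the smallest p against control tamoxifen, and the 3 nearest patterns of Lgr5, Axin2, Ascl2 and Sox9. Znrf3 was named outside this rule, after its values were seen. The members and lists were chosen with earlier results of these data known. The alternatives were no sex term, female arrays alone, the 2 groups alone, leaving out the lowest 25% or 50% of genes, median centring, a second quantile normalisation, no variance trend, robust eBayes, the mean of clusters, and each array left out.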

Additional observations from a re-analysis of the deposited data

Results flagged for a closer look

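In groups of 4 arrays, 20 sets of levels of the measured genes and Itga6 were checked for an array far from the others, and chance alone gives such an array in about 1 of 20. Notum gave both cases found. Its level of 6.33 in mutant tamoxifen replicate 4 stood apart from the other arrays of that group, which all lay at 6.25. That gap is small on the log2 scale and was flagged because those arrays lay so close together. Its level of 6.61 in mutant NaCl replicate 2 stood above the other arrays of that group, at 6.33, 6.38 and 6.33. Without that mutant NaCl array, Notum passed against control tamoxifen (log2 difference -0.17, limma adjusted p = 0.0248), a comparison in which the array takes part through the shared variance and sex term.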

How the results depend on the processing

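Genes called against control tamoxifen numbered 4915 over all genes and 3 of the 9 measured, and in female arrays alone, with 1 control, they numbered 1385 and 1 (Smoc2). With each array left out in turn, the counts were 2517 to 4685 and 1 to 4, lowest without mutant tamoxifen replicate 3 over all genes and without control replicate 2 in the set. For mutant NaCl against control tamoxifen, 0 genes were called, against 3 in a fit of those groups alone, 1 without the lowest 50% of genes, 1 after median centring, 1 after a second quantile normalisation, and 0 to 3 with arrays left out. The counts against mutant NaCl stayed within 1.5 times, at 3150 to 4924 over all genes. Smoc2 and Rnf43 passed against mutant NaCl in all 21 alternatives, and Ascl2 in all 20 that kept it, since the filter at 50% left out Lgr5, Ascl2 and Notum. Lgr5 passed in 3 of 20 against control tamoxifen (0.48 without the sex term, adjusted p = 0.0489) and in 8 of 20 against mutant NaCl (adjusted p 0.0126 to 0.154 over all of them). Every change of sign was in a difference that never passed. In female arrays alone, mutant tamoxifen against control tamoxifen gave 0.0034 for Ephb3 and 0.0122 for Sox9, and mutant NaCl against control tamoxifen gave 0.33 for Lgr5, 0.22 for Ascl2, -0.0723 for Rnf43 and 0.0152 for Notum. Mutant NaCl against control tamoxifen also turned without the sex term (Rnf43 -0.0296), in the fit of those groups alone (Lgr5 0.0156, Rnf43 -0.007) and after a second quantile normalisation (Lgr5 1e-04, Rnf43 -0.0045), after which mutant tamoxifen against mutant NaCl gave -0.0071 for Axin2. With arrays left out, mutant tamoxifen against control tamoxifen ran from -0.0174 to 0.1461 for Axin2, -0.1259 to 0.0084 for Ephb3, -0.0929 to 0.0141 for Sox9 and -0.1196 to 0.0021 for Lrig1. Mutant tamoxifen against mutant NaCl ran, for Axin2, from -0.033 to 0.0364. Mutant NaCl against control tamoxifen ran from -0.2851 to 0.175 for Lgr5, -0.3423 to 0.0482 for Ascl2, -0.0202 to 0.1434 for Axin2, -0.0506 to 0.0827 for Rnf43 and -0.0033 to 0.1227 for Lrig1. The cause of these changes was not tested. No paired analysis was possible because the labels give no replicate numbers that the groups share. The small number of arrays, with 1 female control, limits what can be seen, and detection calls were not used here.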

Other observations

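Levels of Lgr5 and Ascl2, and of Smoc2 and Rnf43, were also set against each other within each array, pairs chosen after their values were seen and therefore given without a test. The sign of such a value has no meaning between probe sets, and only its change between arrays is read. Lgr5 minus Ascl2 on the log2 scale was 0.78, 1.00, 0.67 and 0.38 in mutant tamoxifen, -0.22, 0.01, -0.59 and -0.32 in mutant NaCl, and -0.17, -0.38 and -0.58 in control tamoxifen. The high Lgr5 level of control replicate 1 was thus accompanied by a high Ascl2 level. Smoc2 minus Rnf43 was 0.31 to 0.63 in mutant tamoxifen, -0.54 to -0.18 in mutant NaCl and -0.57 to -0.35 in control tamoxifen.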
